A study of Mus musculus with 4 samples.

Results

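The 33 genes described here were taken by symbol as a set of interferon-stimulated and antigen processing genes, by a rule that uses none of the measured values, though the set was proposed with earlier results of these data known. Of these, 32 were measured by a probe set that the platform annotation gives to a single gene, among 12393 genes measured in that way. Ifi44 had no such probe set and was not analysed here. Each gene is represented by its brightest probe set, the one with the highest mean over the arrays. In all, 42 probe sets belong to the 32 genes, 25 of which have 1 probe set and 7 of which have several.

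The data are 4 Affymetrix mouse arrays, each hybridised with RNA of mammary fibroblasts grown in culture from female FVB/N mice aged 9 weeks. Normal Ets2-present fibroblasts came from Ets2db/loxP mice and normal Ets2-null fibroblasts from Fsp-cre;Ets2db/loxP mice, both without an oncogene. PyMT Ets2-present fibroblasts came from PyMT;Ets2db/loxP mice and PyMT Ets2-null fibroblasts from PyMT;Fsp-cre;Ets2db/loxP mice, in which the MMTV promoter drives the oncogene in the mammary epithelium. The db allele is a conventional knockout carried by all groups, so Ets2-present cells have 1 working copy of Ets2. Fsp-cre, a Cre recombinase under the promoter of fibroblast specific protein 1, was present wherever Ets2 was deleted and absent elsewhere, so loss of Ets2 and presence of Cre cannot be told apart. How many mice gave each culture is not stated in the sources used here. Since each group is a single array, replicates cannot be compared, and each difference below is a difference between 2 arrays, given without an error or a test. More or fewer cells of a type and more or less RNA per cell cannot be told apart in these cultures.

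Interferons are secreted proteins that cells release when they sense viral nucleic acid or other danger. Type I interferon receptors signal through Jak kinases to a complex that holds Stat2 and Irf9 and binds the interferon-stimulated response element (ISRE), while interferon gamma acts mainly on the gamma-activated site (GAS). The genes switched on in this way block viral replication, amplify or damp the response, and raise the supply of peptides to MHC class I molecules. Fibroblasts are a classical responding cell type. Ets2 is a transcription factor of the ETS family.

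Promoter sequences are shown first because the motifs that interferon-activated factors bind are known. RefSeq windows from 250 bases before to 50 bases after a gene's start were held for 27 of the 33 genes, 34 windows in all, with Ifi44 among them. The ISRE letters searched were GAAANNGAAA on either strand, and 13 of the 34 windows (38.2%) held them, against 1131 of 32851 windows of all genes (3.44%). The 12 genes with the letters were Ifit1, Ifit3, Stat2, Oas1a, Rsad2, Ifih1, Bst2, Gbp2, Gbp3, Trim30a, Cxcl10 and B2m. The GAS letters TTCNNNGAA, which read the same on both strands, were in 7 windows (20.6%, against 8.3% of all windows), those of Ifit2, Irf1, Oas1a, Isg20, Ifi35, Bst2 and Psmb8. The ETS letters CCGGAAGT on either strand were in 2 windows (5.88%, against 3.89%), those of Ifit2 and Ifih1. An ISRE match overlapped a GAS match in 1 place, in the Bst2 window, and 0 ETS matches overlapped either. A match is a description of letters and not a measured binding site.

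The following windows belong to genes that the array comparisons turn on, as GRCm38.p6 coordinates with the sequence 5′ to 3′ on the strand of the gene. Ifit1, Ifit3, Stat2 and Irf1 were among the genes with higher levels in PyMT fibroblasts without Ets2, and Trim30a had the widest gap between PyMT and normal fibroblasts of the 32 genes. Capitals mark the ISRE letters, which read TTTCNNTTTC on the printed strand, and for Irf1, whose window holds no ISRE letters, the GAS letters.
Ifit1, chr19:34640639-34640938, plus strand: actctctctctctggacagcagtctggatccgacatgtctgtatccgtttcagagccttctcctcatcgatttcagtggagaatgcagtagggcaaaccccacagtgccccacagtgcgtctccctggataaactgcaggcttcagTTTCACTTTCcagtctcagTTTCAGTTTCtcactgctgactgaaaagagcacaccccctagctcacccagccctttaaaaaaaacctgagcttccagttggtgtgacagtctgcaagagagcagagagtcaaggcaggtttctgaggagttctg
Ifit3, chr19:34583279-34583578, plus strand: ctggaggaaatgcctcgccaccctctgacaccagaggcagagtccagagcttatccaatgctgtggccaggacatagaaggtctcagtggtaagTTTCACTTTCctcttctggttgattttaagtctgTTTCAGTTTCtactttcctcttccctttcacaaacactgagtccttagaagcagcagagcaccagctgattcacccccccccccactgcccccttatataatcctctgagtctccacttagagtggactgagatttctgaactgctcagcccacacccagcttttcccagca
Stat2, chr10:128270248-128270547, plus strand: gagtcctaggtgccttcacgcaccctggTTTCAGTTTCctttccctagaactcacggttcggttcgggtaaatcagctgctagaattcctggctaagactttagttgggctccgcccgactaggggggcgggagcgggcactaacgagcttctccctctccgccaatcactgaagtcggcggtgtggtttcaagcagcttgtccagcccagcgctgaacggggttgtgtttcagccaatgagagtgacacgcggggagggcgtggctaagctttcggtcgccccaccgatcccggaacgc
Irf1, chr11:53769764-53770063, plus strand: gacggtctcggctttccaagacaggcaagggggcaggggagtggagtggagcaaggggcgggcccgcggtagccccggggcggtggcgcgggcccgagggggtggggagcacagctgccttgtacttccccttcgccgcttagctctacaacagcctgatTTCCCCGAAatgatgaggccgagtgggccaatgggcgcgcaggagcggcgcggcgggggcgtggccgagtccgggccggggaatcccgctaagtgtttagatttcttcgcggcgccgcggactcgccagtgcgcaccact
Trim30a, chr7:104465144-104465443, minus strand: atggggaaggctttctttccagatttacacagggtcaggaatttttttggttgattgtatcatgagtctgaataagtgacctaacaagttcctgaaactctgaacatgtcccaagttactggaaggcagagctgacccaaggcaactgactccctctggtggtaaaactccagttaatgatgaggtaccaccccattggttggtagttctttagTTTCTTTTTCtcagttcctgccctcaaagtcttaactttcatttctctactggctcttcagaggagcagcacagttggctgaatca
The Ifit1 and Ifit3 windows each held the ISRE letters in 2 places, ending 94 and 75 bases before the start of Ifit1 and 146 and 112 bases before that of Ifit3. In Stat2 they ended 212 bases and in the printed Trim30a window 26 bases before the start. RefSeq holds another Trim30a window, at chr7:104446076-104446375 on the minus strand, where the letters lie just past the start.

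Levels are log2 RMA values, and a difference of 1 on this scale is 2-fold. A level under 4.63, the 40th percentile of all values on the arrays, is called low here, where a probe set may be near background. By their mean over the arrays, 12 of the 32 genes were low, namely Usp18, Ifih1, Oas2, Oasl1, Oasl2, Mx1, Mx2, Rsad2, Cxcl9, Cxcl10, Psmb9 and Tap2. They include 7 of the 14 antiviral effectors and RNA sensors and 2 of the 7 antigen processing genes. RMA levels of different probe sets are not a scale of transcript amount, so only levels of the same probe set are compared.

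**Figure D1:**
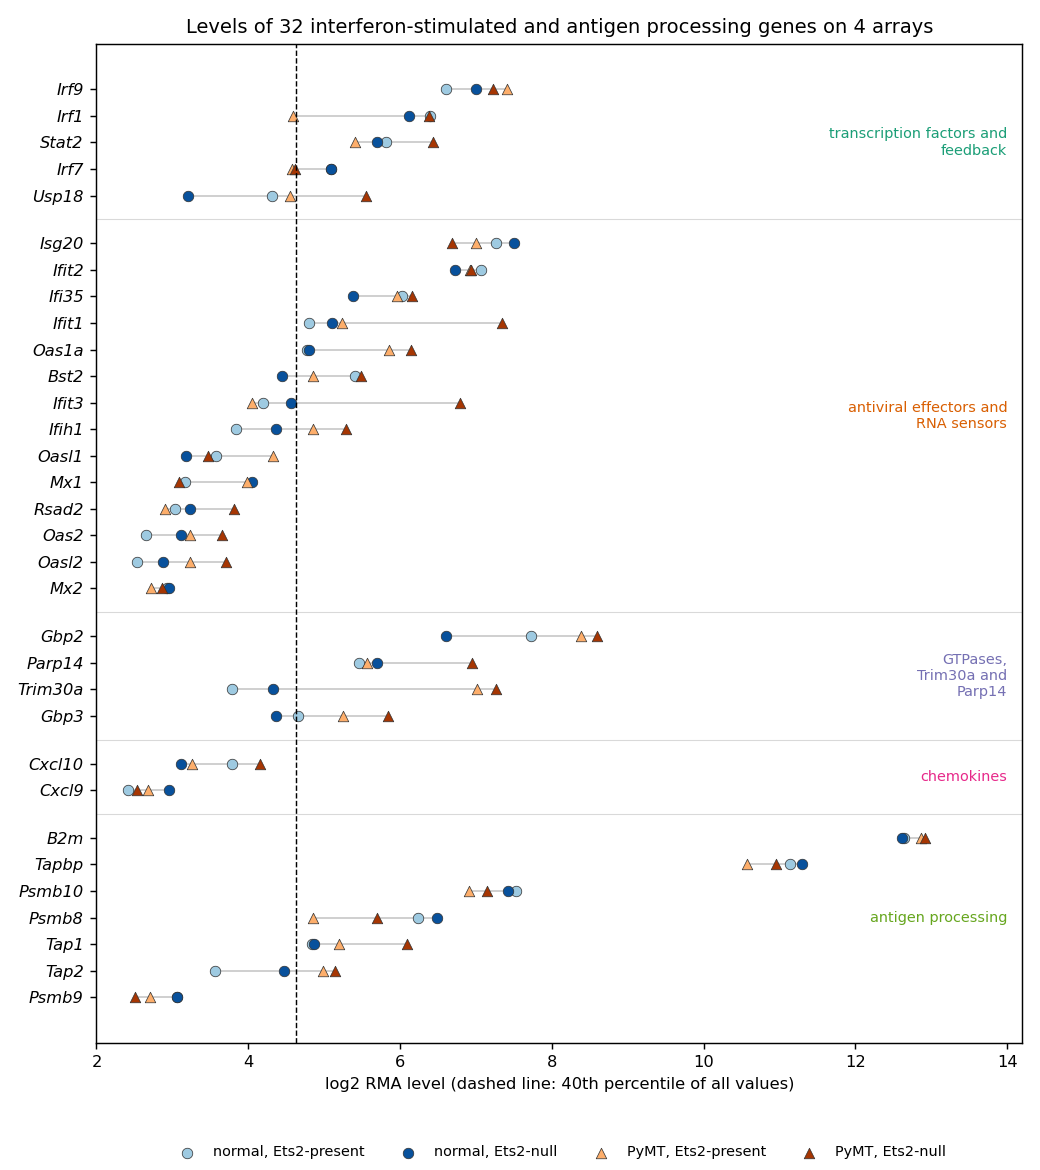
Log2 RMA level of each of the 32 genes on each array, by role and, within a role, by mean level. Circles are normal and triangles PyMT fibroblasts, pale symbols Ets2-present and dark symbols Ets2-null, 1 array each, and the dashed line is the low level of 4.63. The dark triangle of PyMT Ets2-null fibroblasts is the rightmost symbol for 19 of the 32 genes.

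Of the 32 genes, 19 (59.4%) had their highest level in PyMT Ets2-null fibroblasts, 7 in normal Ets2-null, 4 in normal Ets2-present and 2 in PyMT Ets2-present fibroblasts. Among all genes the highest level fell in these groups for 36.6%, 21.2%, 20.1% and 22.0%.

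The PyMT Ets2-null array also differed somewhat from the others over all genes. Its correlations with the other arrays were 0.959 to 0.969. The 2 normal arrays correlated at 0.985, but the highest value for the PyMT Ets2-present array was 0.974, so by this measure the gap was small. The median of the PyMT Ets2-null array over all genes was 6.05 against 6.11 to 6.16, and its lower quartile 3.83 against 3.54 to 3.58. The part of this in the values of the set was not tested. The probe set of Ets2 read 11.86 and 11.89 in normal fibroblasts with and without the gene, and 11.21 and 11.22 in PyMT fibroblasts. Its position against the deleted exons is not stated, so it checks nothing about the deletion.

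Markers of other cells were read beside the set. All 13 fibroblast markers reached 4.63 on at least 1 array, and their summed level on the linear scale was 49400 to 61800 on the 4 arrays. Single fibroblast markers differed more than this sum. Between PyMT fibroblasts without and with Ets2, the log2 differences were −2.37 for Fap, −1.25 for Thy1 and 1.41 for Pdgfra, and with PyMT in Ets2-null fibroblasts they were −5.80 for Lum and −2.41 for Dcn. The summed level of 17 macrophage and myeloid markers was 671 and 612 in normal fibroblasts with and without Ets2, and 1720 and 1010 in PyMT fibroblasts with and without Ets2. Of these markers Itgam, C1qa and C1qc were low on all arrays. The sum of the 17 markers was highest in PyMT Ets2-present fibroblasts and is weighted to bright genes such as Lyz2, Csf1r and Lcp1. Ptprc, Fcer1g, Itgam, C1qa and C1qc instead read highest in PyMT Ets2-null fibroblasts. The 8 T and NK cell markers and the 4 B cell markers were low on all arrays, as were 4 of 5 dendritic cell markers. The dendritic sum was 52.3 to 60.8 on 3 arrays and 106 in PyMT Ets2-null fibroblasts. It turns mainly on Xcr1, the only one of them not low on all arrays, at 4.96 with and 6.07 without Ets2 in PyMT fibroblasts. The 7 epithelial markers summed to 345 and 183 in normal fibroblasts with and without Ets2, and to 121 and 165 in PyMT fibroblasts with and without Ets2. In PyMT fibroblasts Krt14 read 2.42 with and 4.85 without Ets2, and Epcam 3.67 and 5.10. The same difference was −0.22 for Krt8, −0.29 for Krt5, 0.25 for Krt18, 0.16 for Cdh1 and 0.84 for Cldn4. The 6 endothelial markers summed to 97.4 to 165. Low on all arrays were the epithelial markers Krt8, Cdh1 and Cldn4 and the endothelial markers Pecam1, Cdh5, Tie1 and Emcn. The part of myeloid, dendritic or epithelial cells, or of a different make-up of the fibroblasts, in the values of the set was not tested.

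In PyMT fibroblasts, 6 of the 32 genes (18.8%) were at least 2-fold higher without Ets2 and 0 were at least 2-fold lower. Over all 12393 genes 8.3% were at least 2-fold higher and 6.62% at least 2-fold lower. The 6 were Ifit3, Ifit1, Irf1, Parp14, Stat2 and, at the 2-fold limit itself, Usp18. The median difference of the 32 genes was 0.34 on the log2 scale against 0.06 for all genes, and 26 of the 32 (81.2%) were above 0 against 54.3% of all genes. Cyclic loess of the arrays is another normalization. After it, 5 genes were at least 2-fold higher and 2 at least 2-fold lower, against 7.0% and 7.05% of all genes. The 2, Mx1 and Oasl1, were low on all arrays.

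In normal fibroblasts the same contrast gave 0 genes at least 2-fold higher without Ets2 and 2 (6.25%) at least 2-fold lower, Usp18 and Gbp2, against 3.08% and 2.73% of all genes. The median of the 32 genes was 0.03 and that of all genes −0.02, and 59.4% of the set were above 0 against 47.9% of all genes. The 2 Ets2 contrasts share no array. The difference of the 2 contrasts was at least 2-fold higher in PyMT than in normal fibroblasts for 9 of the 32 genes (28.1%) against 12.1% of all genes, and at least 2-fold lower for 1, Mx1, against 10.2% of all genes. Its median was 0.31 for the set and 0.08 for all genes.

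**Figure D2:**
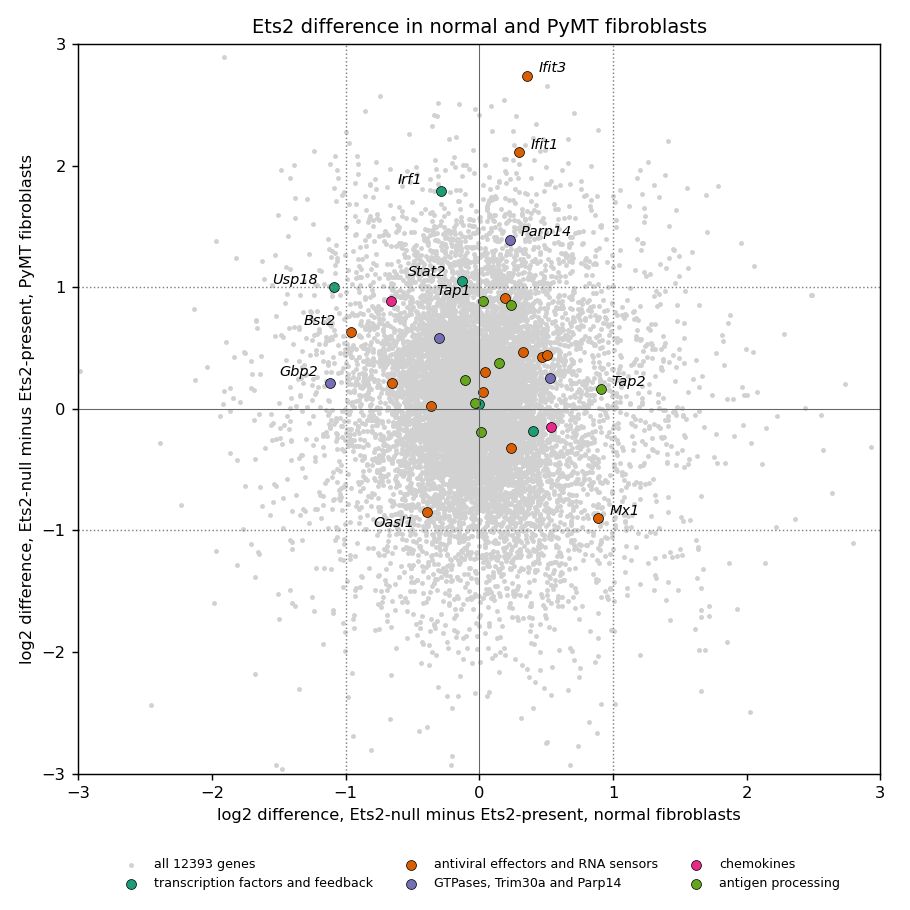
Log2 difference of Ets2-null minus Ets2-present between the 2 normal arrays (horizontal axis) and between the 2 PyMT arrays (vertical axis). Grey points are all 12393 genes, 28 of them outside the axes, coloured points are the 32 genes by role, and dotted lines mark 2-fold. Ifit3 at 2.74 and Ifit1 at 2.11 stand at the top near the vertical zero line, and Usp18 and Gbp2 are left of the dotted line at −1.

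Among transcription factors and feedback genes, 3 of 5 were at least 2-fold higher without Ets2 in PyMT fibroblasts, against 8.3% of all genes. Usp18 is lost from the 3 with low values raised to 4.63, and Stat2 with the mean of probe sets. Irf1 (probe set 1448436_a_at) is a factor induced early by interferon gamma that in turn raises antigen processing genes. In normal fibroblasts its log2 level was 6.40 with and 6.12 without Ets2, and in PyMT fibroblasts 4.59 with and 6.38 without. The PyMT Ets2-present array was low and the other arrays lay within a narrow band. Without Ets2, Irf1 was 3.45-fold higher in PyMT fibroblasts (1.79 on the log2 scale) and −0.29 apart in normal fibroblasts. The 3.52-fold lower level in PyMT than in normal Ets2-present fibroblasts rests on the same low array.

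Stat2 (1421911_at), a subunit of the type I interferon signalling complex, had log2 levels of 5.81 and 5.69 in normal fibroblasts with and without Ets2 and of 5.40 and 6.44 in PyMT fibroblasts with and without Ets2. Each list of 4 levels below follows this order. It was 1.05 higher on the log2 scale without Ets2 in PyMT fibroblasts. A further Stat2 probe set was low throughout, at 2.94 to 3.38, and its difference there was 0.01. With the mean of the probe sets of a gene in place of the brightest, Stat2 was not 2-fold apart. Irf9, the DNA-binding subunit of the same complex, read 6.60, 7.00, 7.41 and 7.23 and was −0.18 apart between the PyMT arrays. Irf7, the amplifier of type I interferon production, read 5.09, 5.09, 4.58 and 4.62, with differences of 0 and 0.04 for Ets2.

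Usp18 (1418191_at) is a protease that removes Isg15 from proteins and damps type I receptor signalling. Its levels were 4.31, 3.21, 4.55 and 5.55, low on 3 of 4 arrays. Its log2 difference without Ets2 was −1.09 in normal and 1.0 in PyMT fibroblasts. With every low value raised to 4.63 these became 0 and 0.92, so neither is 2-fold.

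Antiviral effectors and RNA sensors made up 14 of the measured genes. Without Ets2 in PyMT fibroblasts, 2 of them (14.3%) were at least 2-fold higher, against 8.3% of all genes. Both encode tetratricopeptide proteins that bind viral RNA or support the binding protein, and both have the ISRE letters in 2 places, as printed above. Ifit3 (1449025_at) read 4.20, 4.56, 4.05 and 6.79. It was 6.68-fold higher without Ets2 in PyMT fibroblasts (2.74 on the log2 scale), rank 9 of 12393 genes, and 0.36 higher in normal fibroblasts. The 3 other arrays were low, and with low values raised the PyMT difference was 2.16. Ifit1 (1450783_at) read 4.80, 5.10, 5.23 and 7.34, 4.31-fold higher without Ets2 in PyMT fibroblasts (2.11), rank 43, and 0.30 higher in normal fibroblasts. Both genes were thus single-array highs in PyMT Ets2-null fibroblasts. Ifit2, the neighbour of Ifit3 on chromosome 19 in the RefSeq order of protein coding genes, read 7.07, 6.72, 6.92 and 6.94 and was 0.02 apart between the PyMT arrays. Its window holds the GAS letters and no ISRE letters.

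The other antiviral genes showed no 2-fold Ets2 difference. Oas1a, which makes the 2′-5′-linked oligoadenylates that activate RNase L, read 4.77, 4.80, 5.86 and 6.15. Bst2, the tetherin that holds budding virions at the cell surface, read 5.41, 4.45, 4.85 and 5.48, with Ets2 differences of −0.96 in normal and 0.63 in PyMT fibroblasts. Isg20, an exonuclease, read 7.26, 7.50, 7.00 and 6.68. Ifi35, which forms complexes with Nmi, read 6.03, 5.38, 5.96 and 6.16. Ifih1, the sensor of long double-stranded RNA, read 3.84, 4.36, 4.85 and 5.29 and was 0.51 and 0.44 higher without Ets2 in normal and PyMT fibroblasts. Oas1a and Ifih1 were higher on both PyMT arrays than on both normal arrays, Isg20 was lower on both, and the Bst2 and Ifi35 levels of PyMT and normal arrays overlapped.

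The low antiviral genes can be read only as near background. Rsad2, the radical SAM enzyme viperin, read 3.04, 3.23, 2.90 and 3.81, and its 3 probe sets gave PyMT Ets2 differences of 0.91, 1.25 and 0.68, all at low levels. Mx1 and Mx2, dynamin-like GTPases, read 3.16, 4.05, 3.98 and 3.09 and 2.93, 2.96, 2.72 and 2.86. None of the 4 arrays reached the low level for any probe set of these genes. Oas2 read 2.65, 3.12, 3.23 and 3.66. Oasl1 read 3.57, 3.18, 4.32 and 3.47, and Oasl2, its neighbour on chromosome 5, read 2.54, 2.87, 3.23 and 3.70. With low values raised to 4.63 every difference of these 6 genes was 0.

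Of the GTPases, Trim30a and Parp14, 1 of 4 (25.0%), Parp14, was at least 2-fold higher without Ets2 in PyMT fibroblasts, against 8.3% of all genes. Parp14 (1451564_at), an ADP-ribosyltransferase, read 5.46, 5.69, 5.57 and 6.95, a PyMT Ets2 difference of 1.39 and a normal one of 0.23. Gbp2 (1418240_at), a guanylate-binding protein that acts on intracellular pathogens, read 7.72, 6.61, 8.39 and 8.60. Its log2 difference without Ets2 was −1.12 in normal and 0.21 in PyMT fibroblasts. Its other probe set, whose identifier ends in _x_at and which may match related transcripts, gave −0.69 and 0.09. Gbp3 read 4.66, 4.36, 5.25 and 5.84, with Ets2 differences of −0.30 and 0.58.

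The chemokines Cxcl9 and Cxcl10, which attract T cells through Cxcr3, were low on all arrays. Cxcl9 read 2.42, 2.96, 2.68 and 2.53, and Cxcl10 3.78, 3.12, 3.26 and 4.15. The Cxcl10 difference of 0.89 without Ets2 in PyMT fibroblasts became 0 with low values raised.

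None of the 7 antigen processing genes was 2-fold apart for Ets2 in either setting by its brightest probe set. Over all genes 8.3% were at least 2-fold higher and 6.62% lower in PyMT fibroblasts, and 3.08% and 2.73% in normal fibroblasts. B2m, the invariant light chain of MHC class I molecules, read 12.64, 12.61, 12.86 and 12.91, and its Ets2 differences were −0.03 and 0.05. Tapbp, which helps to load peptides onto class I molecules, read 11.14, 11.29, 10.57 and 10.95. Its further probe set was low at 3.55 to 4.60 and was 1.05 higher without Ets2 in PyMT fibroblasts. The brighter probe sets of both genes were far above the low level on every array.

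Tap1 and Tap2 form the peptide transporter of the endoplasmic reticulum, and Psmb8, Psmb9 and Psmb10 replace the catalytic subunits of the proteasome when interferon is present. On chromosome 17 Psmb9, Tap1, Psmb8 and Tap2 are consecutive protein coding genes in RefSeq order, and the Psmb9 and Tap1 windows, on opposite strands, share 275 bases. Tap1 (1416016_at) read 4.84, 4.87, 5.20 and 6.09, with an Ets2 difference of 0.89 in PyMT fibroblasts. A dimmer Tap1 probe set read 4.45, 3.18, 3.33 and 5.55, which is −1.28 for Ets2 in normal and 2.23 in PyMT fibroblasts, and 2 more were low. Tap2 read 3.56, 4.47, 4.99 and 5.14. Psmb9, which starts beside Tap1, was low at 3.06, 3.06, 2.70 and 2.51.

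Psmb8 read 6.23, 6.48, 4.85 and 5.69, and Psmb10 7.53, 7.42, 6.91 and 7.15. Both were lower in the PyMT arrays than in the normal arrays. Without Ets2, Psmb8 was 0.85 higher in PyMT fibroblasts, where Psmb5, the constitutive subunit it replaces, read 10.49 with and 9.66 without Ets2, a difference of −0.82. The Psmb8 difference less the Psmb5 difference was 1.67 there and 0.06 in normal fibroblasts. The same quantity was 0.44 and −0.21 for Psmb10 against Psmb7, and 0.06 and 0.03 for the low Psmb9 against Psmb6. The constitutive Psmb6 and Psmb7 were −0.25 and −0.20 apart for Ets2 in PyMT fibroblasts.

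Comparisons of PyMT with normal fibroblasts share arrays with the Ets2 comparisons, so a single array can enter both. In Ets2-null fibroblasts, 11 of the 32 genes (34.4%) were at least 2-fold higher with PyMT and 0 at least 2-fold lower, against 9.8% and 8.73% of all genes. The median of the set was 0.63 and that of all genes 0.10. The 11 were Trim30a, Usp18, Ifit1, Ifit3, Gbp2, Gbp3, Oas1a, Parp14, Tap1, Bst2 and Cxcl10. After cyclic loess 9 genes were at least 2-fold higher and 1, Mx1, at least 2-fold lower, against 7.99% and 9.55% of all genes. With low values raised to 4.63, 8 of the 11 kept the call, and Usp18 (0.92), Bst2 (0.85) and Cxcl10 (0) lost it, while the mean of probe sets lost Tap1. In Ets2-present fibroblasts, 4 genes (12.5%) were at least 2-fold higher, Trim30a, Tap2, Oas1a and Ifih1, and 2 (6.25%) at least 2-fold lower, Irf1 and Psmb8, against 5.29% and 5.59% of all genes. The median there was 0.16, against −0.01 for all genes. Among the genes with a mean of at least 4.63 it was −0.11, so the sign of this median depends on low genes.

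**Figure D3:**
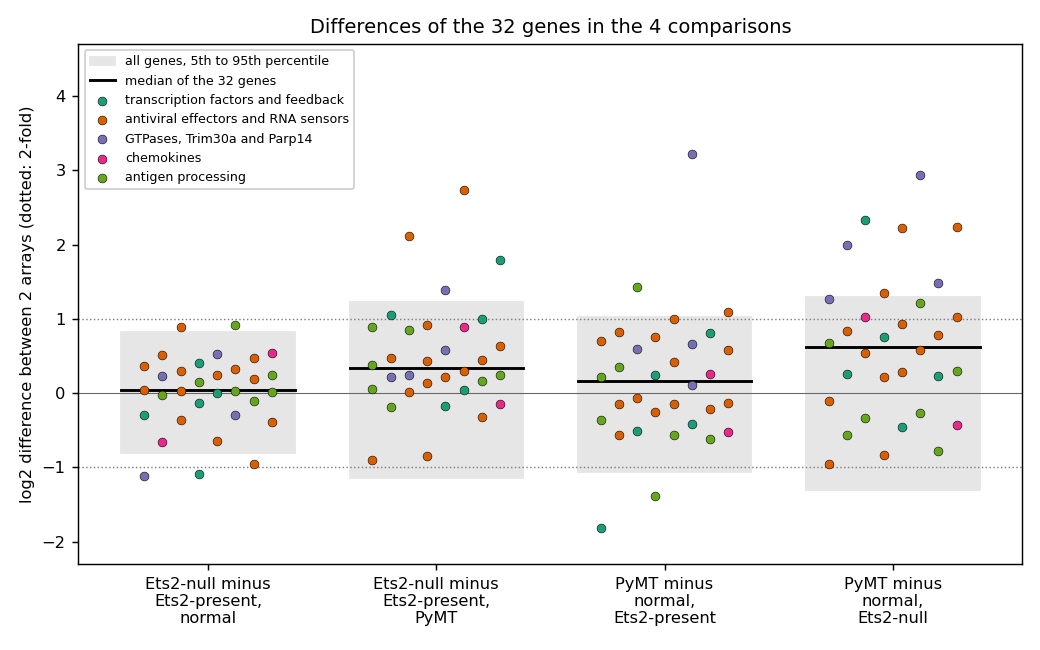
Log2 differences between 2 arrays for the 32 genes in 4 comparisons, coloured by role. Black bars are the medians of the set (0.03, 0.34, 0.16 and 0.63 from left to right), grey boxes span the 5th to 95th percentile of all genes, dotted lines mark 2-fold, and sideways position within a column has no meaning. The highest point of both PyMT columns is Trim30a.

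Trim30a (1451860_a_at), a ubiquitin ligase of the tripartite motif family that is induced by interferon and restrains innate signalling, had the largest difference of the set between PyMT and normal fibroblasts. Its levels were 3.79, 4.32, 7.01 and 7.26, so the PyMT arrays were both high and the normal arrays both low. The PyMT differences were 3.22 with and 2.94 without Ets2, on pairs of arrays that have none in common. With low values raised they were 2.38 and 2.63. A further probe set of Trim30a was low on all arrays, at 2.45 to 2.84, and its differences were 0.39 and 0.21. The Ets2 differences of the brighter probe set were 0.53 and 0.25. Family members with like sequences could share its probes.

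Oas1a was the other gene of the set at least 2-fold higher with PyMT in both Ets2 states, at 1.09 and 1.35 on the log2 scale. Gbp2 was 0.66 higher with PyMT in Ets2-present and 1.99 higher in Ets2-null fibroblasts, Gbp3 0.59 and 1.48. Psmb8 ran the other way at −1.39 and −0.78. Ifih1 stood at the 2-fold limit in Ets2-present fibroblasts (1.0) and came to 0.22 with low values raised, and Tap2 went from 1.43 to 0.36. Those calls thus rest on low levels.

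By promoter letters, the 12 measured genes with the ISRE letters had a median PyMT Ets2 difference of 0.60, from 0.05 to 2.74. Of these, 12 of 12 were above 0, against 54.3% of all genes. The 14 measured genes whose windows lack the letters had a median of 0.12, from −0.85 to 1.79, with 9 above 0. Among the 12, Rsad2 (0.91) and Cxcl10 (0.89) were low on all arrays, and with low values raised both differences were 0. The same held among the 14 for Oasl1 (−0.85), Oasl2 (0.47), Cxcl9 (−0.15) and Psmb9 (−0.19). Both counts above 0 thus include genes near background. In normal fibroblasts the medians with and without the letters were 0.01 and 0.02. Between PyMT and normal Ets2-null fibroblasts, which use the same PyMT Ets2-null array, the medians were 1.19 and −0.03, and in Ets2-present fibroblasts 0.32 and −0.20. Windows were not held for Usp18, Parp14, Mx1, Mx2, Oas2 and Tap2. These are descriptions of genes that share arrays, and no test was made.

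Further genes of the pathway were read from a list of 103, of which 82 were measured. Among 32 further interferon-stimulated genes, 8 (25.0%) were at least 2-fold higher without Ets2 in PyMT fibroblasts and 1 at least 2-fold lower, with a median of 0.70. With low values raised to 4.63, an alternative chosen after seeing the data, 5 were at least 2-fold higher, Casp1, Ifi47, Irgm1, Cd274 and Sp100, while Nmi (0.80), Rtp4 (0.33) and Cxcl11 (0) were not. In normal fibroblasts 4 (12.5%) were at least 2-fold higher, Casp1, Igtp, Ccl5 and Iigp1, and 0 at least 2-fold lower, with a median of 0.14. Without raising, the shares of all genes are those given above for the same comparisons. With low values raised, 3.03% of all genes were at least 2-fold higher without Ets2 in PyMT fibroblasts. Irgm1 and Ifi47, interferon gamma-induced GTPases, read 7.12, 6.95, 7.39 and 8.78 and 6.62, 6.76, 7.03 and 8.41. Cd274, the checkpoint ligand PD-L1, read 5.35, 5.21, 6.03 and 7.39, and Sp100, a nuclear body protein, 4.94, 4.77, 5.66 and 6.85. Each of these had its highest level in PyMT Ets2-null fibroblasts, as had 36.6% of all genes. They were picked by a higher level on that array, so this adds no support.

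**Figure D4:**
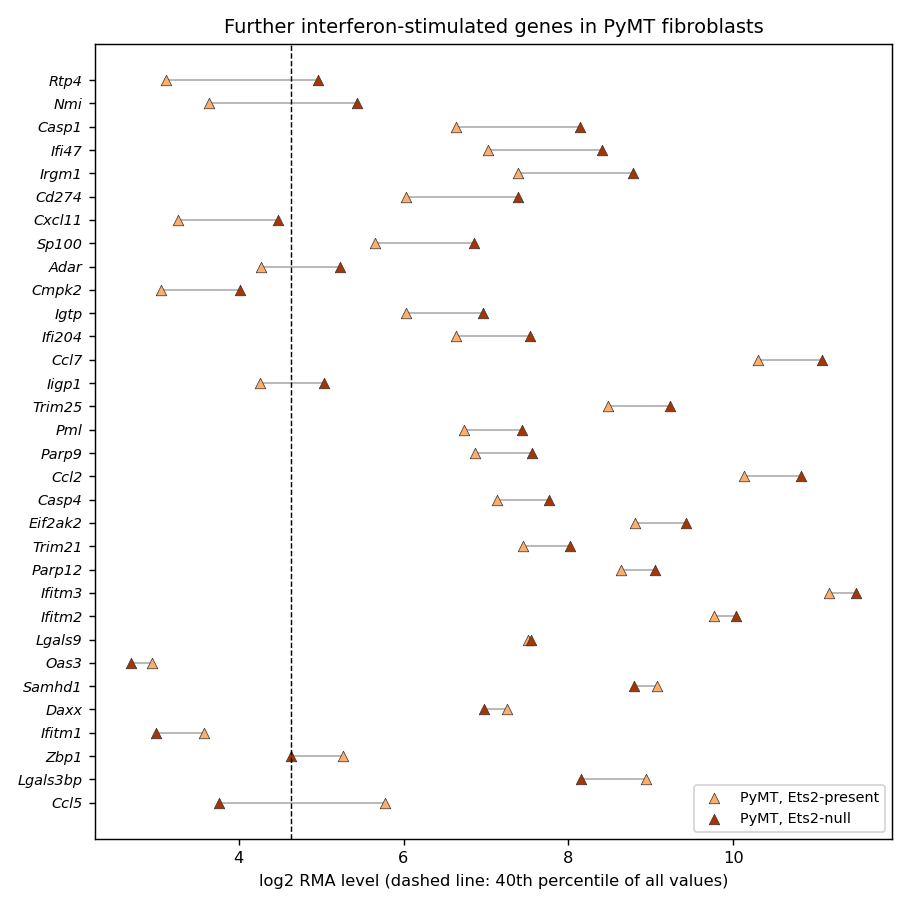
Log2 RMA levels of 32 further interferon-stimulated genes in PyMT fibroblasts with Ets2 (pale triangles) and without Ets2 (dark triangles), 1 array each, ordered by the difference, with the low level of 4.63 as a dashed line. The dark symbol is to the right for 25 genes and to the left for 7, with Ccl5 at the bottom.

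Nmi, the partner of Ifi35, followed the pattern of Irf1 with levels of 5.44, 5.11, 3.64 and 5.43, 1.79 higher without Ets2 in PyMT fibroblasts from a low level. Casp1, the inflammasome protease, read 5.57, 6.99, 6.64 and 8.14 and was higher without Ets2 in both settings, by 1.42 and 1.5. Rtp4 and Cxcl11, named after their values were seen, completed the 8. Rtp4 read 3.46, 3.98, 3.12 and 4.96, and Cxcl11 was low on all arrays. The monocyte chemokines Ccl2 and Ccl7 were bright, at 10.02, 9.24, 10.13 and 10.82 and 10.03, 9.65, 10.30 and 11.08, with PyMT Ets2 differences of 0.69 and 0.78. They were 1.59 and 1.43 higher with PyMT in Ets2-null fibroblasts. Ccl5, a chemokine of T cells and monocytes, read 4.56, 5.77, 5.78 and 3.76. Its difference without Ets2 was 1.20 in normal and −2.02 in PyMT fibroblasts, the lowest of the 7 of these 32 genes that were below 0 between the PyMT arrays.

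Igtp and Iigp1, GTPases of the same class as Irgm1, were higher without Ets2 in normal fibroblasts, by 1.31 and 1.07, and by 0.93 and 0.77 in PyMT fibroblasts. Ifi204, a DNA sensor family member, read 8.08, 8.42, 6.64 and 7.53. Its difference with PyMT in Ets2-present fibroblasts was −1.44.

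Of 10 interferon ligands and receptors, 0 were at least 2-fold higher without Ets2 in PyMT fibroblasts and 1 (10.0%) at least 2-fold lower. The shares of all genes were 8.3% and 6.62%. The 1 was Ifna1, named after its values were seen, whose level was low on 3 of 4 arrays. With low values raised its difference was −0.22. Ifnb1 read 3.31, 3.21, 3.50 and 3.77 and Ifng 2.75, 2.81, 2.65 and 3.39, low on all arrays. Among receptor chains the difference without Ets2 in PyMT fibroblasts was 0.35 for Ifnar1, −0.67 for Ifnar2, 0.17 for Ifngr1, 0.21 for Ifngr2 and −0.93 for Il10rb. The PyMT Ets2 difference less the normal one was at least 2-fold lower for 3 of the 10, Ifna1 (−2.21), Ifnar2 (−1.14) and Il10rb (−1.05).

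Of 20 measured signalling genes, sensors and negative regulators, 2 were at least 2-fold higher without Ets2 in PyMT fibroblasts, Ikbke and Dhx58, and 2 at least 2-fold lower, Mavs and Irf8, or 10.0% each way against 8.3% and 6.62% of all genes. Dhx58 and Irf8, low on all arrays, were named after their values were seen. Ikbke, a kinase upstream of interferon production, read 5.23, 3.68, 4.61 and 5.62, differences without Ets2 of −1.55 in normal and 1.01 in PyMT fibroblasts. With low values raised these were −0.60 and 0.99, so neither is 2-fold. Tyk2, a kinase of the type I receptor, read 4.36, 4.61, 5.28 and 6.01. The adaptors Mavs and Myd88 were lower without Ets2 in PyMT fibroblasts, at 6.97 and 5.90 and at 6.16 and 5.36. Isg15 was not analysed here.

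The 10 further antigen processing and MHC class I genes measured had 0 at least 2-fold apart in any of the 4 comparisons. Over all genes 3.08% to 9.8% were at least 2-fold higher and 2.73% to 8.73% at least 2-fold lower in them. A count of 0 among 10 genes is close to these shares. H2-K1 read 9.76, 9.73, 10.12 and 10.34 and H2-D1 10.03, 9.79, 10.31 and 10.33, so both were highest in PyMT Ets2-null fibroblasts by a small margin. Of 7 genes of the MHC class II pathway 3 were at least 2-fold higher with PyMT in Ets2-present fibroblasts, against 5.29% of all genes. They were H2-DMa at 5.08 and 6.29, the lysosomal protease Ctss at 6.21 and 7.93, and H2-Ab1, at 3.14 and 4.73, which was named after its values were seen and came to 0.10 with low values raised. Cd74, H2-Aa, Ciita and H2-Eb1, low on both of these arrays, differed by −0.57, −0.40, −0.40 and 0.04. The sum of myeloid markers was also higher on the PyMT Ets2-present array, at 1720 against 671, and its part in these values was not tested.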

How the data were processed

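RNA of cultured mammary fibroblasts was profiled on 4 Affymetrix mouse arrays, 1 per group, and the groups were taken from the sample labels. The deposited table holds log2 levels of 22690 probe sets, 64 of them controls, which the authors computed by RMA (background correction, normalization between arrays and summary of probes), with no version stated. Whether further arrays were processed together with these 4 is not given in the sources used here. Values ran from 1.42 to 14.85. Scanner files were not used here, so detection above background is not known, and the number of arrays limits the precision.

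The platform annotation gave 1 gene to 20380 probe sets used here, several to 691 and none to 1606. The 32 genes matched RefSeq by Entrez ID with 0 symbols updated. The brightest probe set by mean stood for a gene, with no filter in the main setting. Differences of log2 levels between 2 arrays were taken, and a difference of at least 2-fold was counted, beside the share of all 12393 genes past it. With 1 array per group no test was run. For 2982 genes the 2 brightest probe sets both had a mean of at least 4.63. The disagreement between their log2 differences had an SD of 0.42 (Ets2, normal), 0.60 (Ets2, PyMT), 0.43 (PyMT, Ets2-present) and 0.61 (PyMT, Ets2-null). Probe sets with a low mean are not covered by these values. Alternatives were filters on low values, low values raised to the 40th percentile, another choice of probe set, cyclic loess (limma 3.58.1 in R 4.3.3) and centring on the median of all genes. Tables were made with Python 3.11.15, pandas 2.3.3 and numpy 2.4.6, and the counting was tested on simulated data. Promoter windows are RefSeq sequences of GRCm38.p6.

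All genes of the set are named with their values, as are further pathway genes at least 2-fold apart in any comparison with a mean of at least 4.63, the constitutive proteasome subunits, and markers. The members and all lists were chosen with earlier results of these data known.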

Additional observations from a re-analysis of the deposited data

Results flagged for a closer look

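Usp18 had a 2-fold lower level without Ets2 in normal fibroblasts and a 2-fold higher level in PyMT fibroblasts, and the PyMT Ets2 difference less the normal one was 2.09 on the log2 scale, mostly from low levels. Ikbke differed in the same directions, with 2.56 for the same quantity, from levels of which 3.68 and 4.61 are low, and with low values raised this was 1.58. Ccl5 differed in the opposite directions, with −3.22. Each effect is a difference between 2 arrays, and the difference between the effects was not tested. Such opposite Ets2 differences of at least 2-fold were found for 101 of 12393 genes (0.815%).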

How the results depend on the processing

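No paired analysis was possible because each group holds 1 array, and for the same reason no array could be left out. With a mean of at least 4.63 (20 genes), 1 gene was at least 2-fold lower for Ets2 in normal fibroblasts and 2 were at least 2-fold higher with PyMT in Ets2-present fibroblasts, where the median turned to −0.11. The median with PyMT in Ets2-null fibroblasts was then 0.77, and the PyMT Ets2 difference less the normal one had a median of 0.73 and 0 genes at least 2-fold lower. With the highest value reaching 4.63 (23 genes), these were 0.78, 0.61 and 0. Usp18 and Ifit3 pass this filter only through their PyMT Ets2-null level, and Trim30a, Ifih1 and Tap2 only through PyMT arrays. The mean filter also includes the PyMT arrays. The medians under both filters are thus partly set by the filter. With a mean of at least 6.78, the 60th percentile, only 7 genes were left. For Ets2, 1 was then at least 2-fold lower in normal fibroblasts (median −0.03) and 0 at least 2-fold higher in PyMT fibroblasts (median 0.05). With PyMT, 0 were higher and 0 lower in Ets2-present fibroblasts (median −0.15) and 1 higher in Ets2-null fibroblasts (median 0.22), and the difference of the Ets2 contrasts was past 2-fold for 1 upwards and 0 downwards. The genes lost there, Ifit1 and Ifit3 among them, have lower means.

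With low values raised to 4.63, 1 gene was lower for Ets2 in normal fibroblasts, against 0.839% of all genes. The Ets2 median in PyMT fibroblasts was 0.21. With PyMT in Ets2-present fibroblasts 2 genes were higher, against 2.53% of all genes (median 0). The PyMT median in Ets2-null fibroblasts was 0.25, and 0 genes were lower in the difference of the contrasts, against 6.04% of all genes. The mean of the probe sets of a gene gave 1 lower gene for Ets2 in normal fibroblasts, against 2.29% of all genes. It gave a PyMT median of 0.02 in Ets2-present fibroblasts. Cyclic loess gave 2 lower genes for Ets2 in PyMT fibroblasts, against 7.05% of all genes. With PyMT in Ets2-null fibroblasts it gave 1 lower gene, against 9.55% of all genes, and a median of 0.48. Centring and leaving out probe sets that end in _s_at or _x_at moved none of the counts of the set past 1.5 times.

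The 6 genes at least 2-fold higher without Ets2 in PyMT fibroblasts kept that call in 5 cases with low values raised, with a mean of at least 4.63 and after cyclic loess (Usp18 lost), and in 5 with the mean of probe sets (Stat2 lost). Ifit3 reaches a mean of 4.63 only through its PyMT Ets2-null level, so that filter is no support for its call. As alternatives chosen after seeing the data, the count of genes highest in PyMT Ets2-null fibroblasts, 19 of 32, was taken in each setting. It was 12 of 20 with a mean of at least 4.63, against 33.4% of all genes at such levels. With a mean of at least 6.78 it was 2 of 7, against 34.1%. With the highest value reaching 4.63 it was 15 of 23, against 35.0%. These filters include the array that is counted. With low values raised it was 15 of 32, against 24.5%. It was 19 of 32 with the mean of probe sets (35.4% of all genes) and without _s_at and _x_at probe sets (36.7%). After cyclic loess (34.6%) and after centring (42.4%) it was 20 of 32. The causes were not tested.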
